A study of Homo sapiens with 12 samples.

Results

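The comparison described here is that of 2 hairpin lines of HEK293T, a human embryonic kidney cell line, after both had been exposed to hydrogen peroxide. It used 4 of the 12 RNA-seq libraries of the series: 2 from cells expressing shHuR, a short hairpin RNA against HuR, and 2 from cells expressing shControl, a control hairpin. Both lines received H2O2 at 225 µM in the growth medium for 18 h before RNA was taken, so the oxidant is shared by the groups compared and no untreated cells enter the difference. The hairpins had been delivered by lentivirus in a pLKO vector and the cells selected with puromycin, and the series gives 2 biological replicates a group. Each line is 1 transduced population with 1 hairpin, so an effect of the HuR hairpin cannot be told apart from any other difference between the populations. Nor does a difference between peroxide-treated lines show by itself that peroxide was needed for it. The series asks, by its title, what HuR contributes to the transcriptome of cells met by electrophiles or oxidants. The other 8 libraries did not enter the difference and served to estimate the spread between replicates and to filter low counts.

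HuR, encoded by ELAVL1, is an RNA-binding protein that recognises U-rich and AU-rich sequence in introns and 3′ untranslated regions (UTRs) and is best known for stabilising the mRNAs it binds. It is mostly nuclear and moves to the cytoplasm under oxidative and other stresses. Classical targets include mRNAs for cyclins, growth factors, immediate early proteins and regulators of cell death.

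The shHuR hairpin is shown because its target sequence is what separates the lines by design. The sense arm, which carries the target sequence of 21 bases, is in capitals.
shHuR hairpin oligo: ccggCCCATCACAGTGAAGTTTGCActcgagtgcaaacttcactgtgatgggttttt
The target matched GENCODE 29 transcripts exactly in 1 gene, ELAVL1, at chr19:7967669-7967689 on the minus strand of GRCh38, within the coding sequence in exon 5 of 6. The antisense arm gives a guide strand whose seed, bases 2 to 8, is in capitals.
shHuR guide: tGCAAACTtcactgtgatggg

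ELAVL1 mRNA was moderately lower in the shHuR line under H2O2. Its level in CPM (counts scaled to library size) was 70.6 and 74.5 in the shHuR libraries and 92.2 and 99.4 in the shControl libraries, and the groups did not overlap. The means were 72.6 ± 2.76 and 95.8 ± 5.06 CPM (SD, n = 2), a fall of 24.3% by edgeR (log2 fold change -0.40, SE 0.07, adjusted p = 0.00393). Without shHuR replicate 1 the call was lost, at -0.36 and an adjusted p of 0.0740. For a single gene, 2 libraries against 2 allow no 2-sided exact permutation p below 0.333, the value ELAVL1 reached. All calls below therefore rest on edgeR's quasi-likelihood test, which shares its estimate of spread across genes and all 12 libraries, with a Benjamini-Hochberg adjusted p under 0.05.

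Under H2O2 the lines differed in 1151 of 16005 genes tested (7.19%). Of these, 404 were higher in shHuR (2.52%) and 747 lower (4.67%). The differences were mostly small. The median log2 fold change was 0.41 for the genes called higher and -0.45 for those called lower, 828 of the 1151 (71.9%) were below 1.5-fold, and 96 (0.6% of genes tested) reached 2-fold, 26 higher and 70 lower. The median over all genes tested was -0.0019. In every called gene both libraries of one line lay above both of the other, a pattern that 52.1% of all tested genes showed. These counts leaned on single libraries: 290 genes were called without shHuR replicate 1, 313 without shHuR replicate 2 and 427 without shControl replicate 1. Without shControl replicate 2 the total did not fall, although part of the 1151 was no longer called. More genes were called when 1 or the other of the shControl libraries treated with HNE, an electrophile, was dropped. Fewer were called when 1 of the other libraries outside the difference was dropped. None of these libraries enters the difference, but dropping 1 changes the estimate of spread and the filter. Without an HNE-treated shControl library 16394 or 16439 genes were tested, and without an HNE-treated shHuR library 16471 or 16423, against 16005. Why the number of calls moved was not tested.

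**Figure D1:**
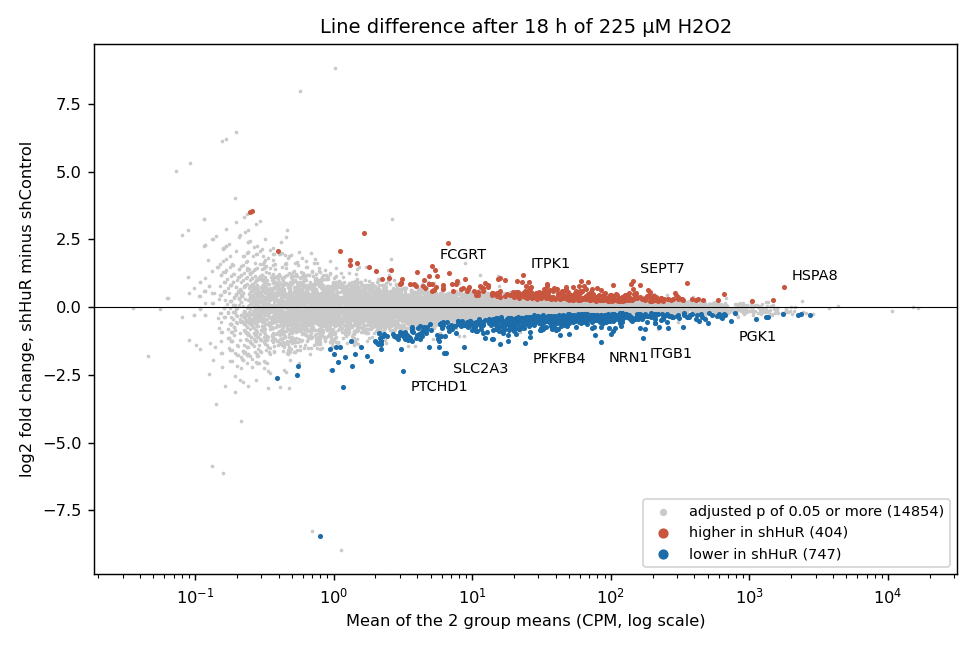
Log2 fold change between the lines under H2O2 (vertical axis, shHuR minus shControl) against mean level in CPM (horizontal axis, log scale) for each of 16005 genes tested. The 404 genes called higher and 747 called lower spread from low to high level, most of them close to 0, and PTCHD1, SLC2A3, PFKFB4, NRN1 and ITGB1 mark falls of 2-fold or more.

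Among gene lists with 10 or more members tested, the largest share called was in the targets of hypoxia-inducible factor (HIF) and the enzymes of glycolysis. HIF is a transcription factor whose α subunit is hydroxylated by the oxygen-dependent EGLN enzymes and then destroyed through VHL. When it accumulates it raises glucose transporters, glycolytic enzymes, mitophagy receptors, collagen-modifying enzymes and EGLN enzymes. Of the 44 genes on the list, 42 were tested. Of these, 29 were called lower in shHuR (69%, against 4.67% of all genes tested) and 0 were called higher. Their median log2 fold change was -0.44. All 42 had a negative estimate, from -1.70 for SLC2A3 to -0.02 for GPI, and in 39 both shHuR libraries lay below both shControl libraries, against 26.5% of all genes tested. The list was drawn up with earlier results of these data known, so its direction is not independent evidence. Without shHuR replicate 1, 15 of these 29 calls were lost (edgeR adjusted p from 0.0505 to 0.362), and without shControl replicate 1, 8 were lost (0.0865 to 0.257). The calls of 14 members held in every one of 24 alternative analyses, and over these the list's median stayed between -0.50 and -0.39.

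**Figure D2:**
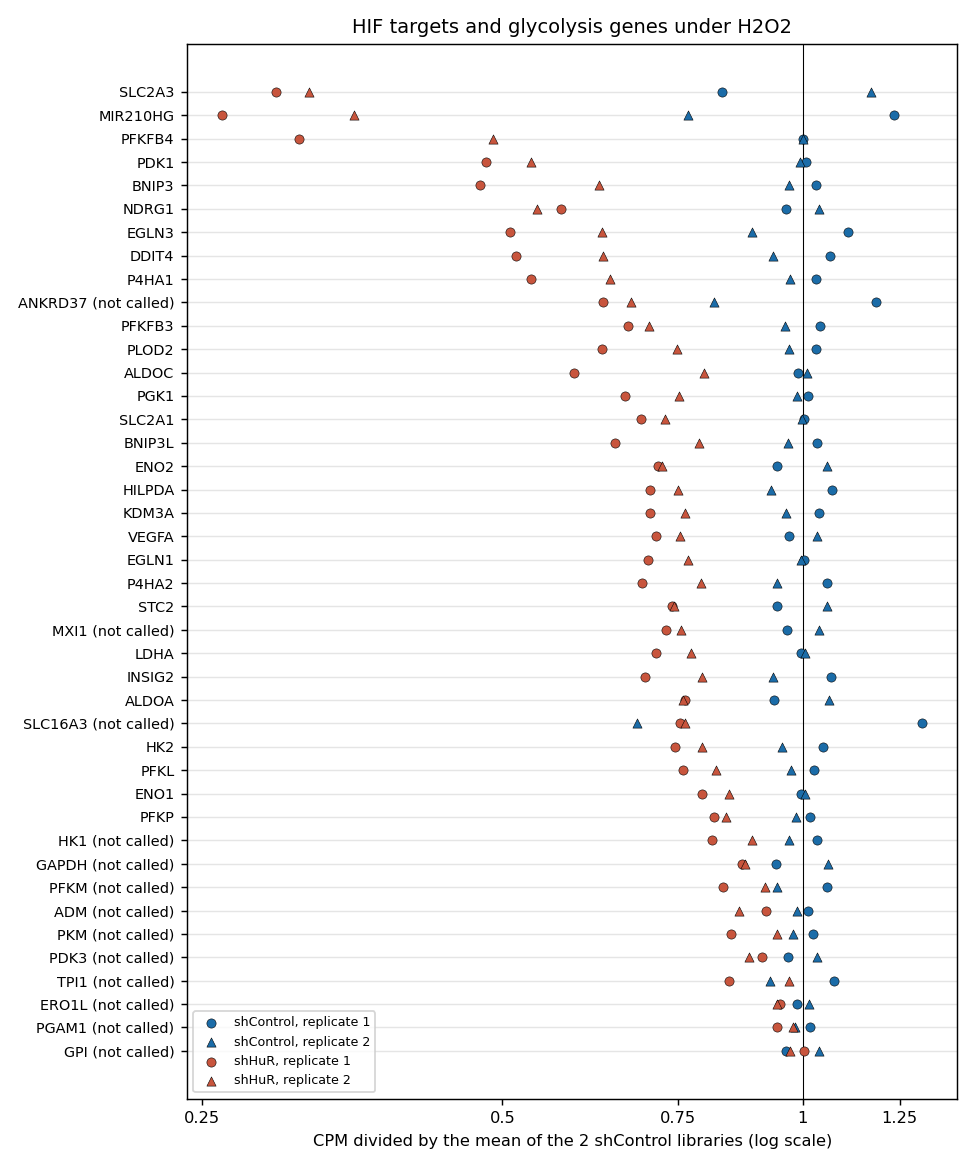
CPM of 42 tested HIF targets and glycolysis genes in each H2O2 library, divided by the mean of the shControl libraries (horizontal axis, log scale), ordered by log2 fold change; circles are replicate 1 and triangles replicate 2. The shHuR libraries (orange) lie to the left of the shControl libraries (blue) in 39 genes, and the 13 genes not called are marked.

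Genes of glucose entry and of the control of glycolytic flux were lower in shHuR. SLC2A3, a high-affinity glucose transporter, was at 2.94 and 3.17 CPM in shHuR against 8.23 and 11.6 CPM in shControl, a fall of 69.2% (log2 fold change -1.70, SE 0.21, edgeR adjusted p = 4.11e-04). SLC2A1, the ubiquitous glucose transporter, was at 53.2 and 56.2 CPM against 77.4 and 77.1 CPM (-0.50, edgeR adjusted p = 0.00130). PFKFB4, one of the enzymes that make and degrade the phosphofructokinase activator fructose 2,6-bisphosphate, was at 10.8 and 16.9 CPM in shHuR and at 34.5 CPM in both shControl libraries. Its log2 fold change was -1.32 (SE 0.15, edgeR adjusted p = 2.58e-04), although the shHuR libraries themselves stood well apart. PFKFB3, of the same family, was at 58.3 and 61.2 CPM against 90.7 and 83.8 CPM (-0.55, edgeR adjusted p = 0.00114).

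Among the enzymes of the pathway itself, some steps held called genes and others did not. The hexokinase HK2 fell by 0.38 on the log2 scale, the phosphofructokinases PFKL and PFKP fell by 0.34 and 0.28, and the aldolases ALDOA and ALDOC fell by 0.40 and 0.53. PGK1, phosphoglycerate kinase, was at 574 and 650.0 CPM in shHuR and at 875 and 853 CPM in shControl (-0.50, edgeR adjusted p = 0.00134). The enolases ENO1 and ENO2 fell by 0.29 and 0.48, with edgeR adjusted p of 0.00694 and 0.0244. LDHA, which turns pyruvate into lactate, was at 909 and 983 CPM against 1268 and 1280 CPM (-0.43, SE 0.06, edgeR adjusted p = 0.00103). Several steps did not pass: GAPDH had -0.20 (edgeR adjusted p = 0.112), PKM -0.16 (0.214), TPI1 -0.14 (0.479), PGAM1 -0.06 (0.646) and GPI -0.02 (0.908). HK1 (-0.24) and PFKM (-0.19) did not pass either, with edgeR adjusted p of 0.107 and 0.202. The weaker calls here depended on single libraries. Those of ALDOC, HK2, PFKL, PFKP, ENO1, ENO2 and ALDOA were each lost when 1 or more of the 4 H2O2 libraries was left out. Those of ALDOC and PFKP were also lost without either untreated shControl library or either HNE-treated shHuR library.

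PDK1, the kinase that shuts the pyruvate dehydrogenase complex and so keeps pyruvate from the mitochondria, was at 64.4 and 71.5 CPM in shHuR and at 135 and 133 CPM in shControl. It fell by 49.2% (log2 fold change -0.98, SE 0.09, edgeR adjusted p = 5.30e-05). PDK3 had -0.16 (edgeR adjusted p = 0.206). BNIP3, a mitophagy receptor, was at 63.6 and 83.7 CPM against 138 and 130 CPM (-0.86, edgeR adjusted p = 6.10e-04), and its relative BNIP3L fell by 0.48, a call lost without replicate 1 of either line. The shHuR libraries differed from each other for BNIP3 by less than they differed from either shControl library.

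The HIF-responsive hydroxylases were also lower. EGLN3 and EGLN1, the prolyl hydroxylases that mark HIF for destruction, fell by 0.81 and 0.45 (edgeR adjusted p = 0.00266 and 0.00319). P4HA1, a catalytic subunit of the collagen prolyl hydroxylase, was at 72.4 and 87.0 CPM in shHuR against 140 and 132 CPM in shControl (-0.77, edgeR adjusted p = 3.58e-04), and P4HA2 fell by 0.43. PLOD2, a collagen lysyl hydroxylase, fell by 0.54 and the histone demethylase KDM3A by 0.45. Calls for EGLN1, EGLN3, PLOD2 and P4HA2 did not hold without shHuR replicate 1, nor that for P4HA2 without shControl replicate 1, whereas those for P4HA1 and KDM3A held.

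Other HIF targets followed the same direction. MIR210HG, the host transcript of the hypoxia-induced miR-210, was at 2.50 and 3.38 CPM in shHuR against 11.8 and 7.30 CPM in shControl (-1.69, SE 0.25, edgeR adjusted p = 0.00112). NDRG1, a stress-responsive gene, was at 29.6 and 28.0 CPM against 49.7 and 53.6 CPM (-0.84, edgeR adjusted p = 7.49e-04). DDIT4, an inhibitor of mTORC1 signalling, was at 117 and 143 CPM against 241 and 211 CPM (-0.80, edgeR adjusted p = 7.06e-04). VEGFA, an angiogenic factor, STC2, HILPDA and INSIG2 fell by 0.45, 0.43, 0.46 and 0.42. MXI1 had -0.43 without passing (edgeR adjusted p = 0.0624), and ADM, ANKRD37, SLC16A3 and ERO1L did not pass (0.368 to 0.713), with levels under 5 CPM for the first 3 of them. VEGFA, HILPDA and INSIG2 lost their calls without shHuR replicate 1, and the latter pair also without shHuR replicate 2 or shControl replicate 1. HILPDA and INSIG2 also lost theirs without either untreated shControl library or either HNE-treated shHuR library, which do not enter the difference.

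The mRNAs of the HIF subunits, of VHL and of the asparaginyl hydroxylase HIF1AN did not pass the test, unlike those of EGLN1 and EGLN3, and those other than HIF1A were looked up after their values were seen. HIF1A, the oxygen-regulated subunit, was at 86.4 and 84.1 CPM in shHuR and at 73.5 and 84.9 CPM in shControl, so the groups overlapped (0.11, edgeR adjusted p = 0.541). EPAS1, the second α subunit, had 0.27 (edgeR adjusted p = 0.315), ARNT, their partner, 0.05 (0.785), and HIF1AN 0.14 (0.342). VHL had -0.22 (edgeR adjusted p = 0.138), with both shHuR libraries lower, and was called in 2 of the 24 alternatives, those without 1 HNE-treated shControl library. A p above the threshold does not show that these mRNAs were equal, and no protein was measured in these files.

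HIF binds a short core motif, ACGTG or GCGTG, and promoters of list members are shown because they carry it. Windows of 60 bases that end at or before the transcription start are from RefSeq promoters (GRCh38.p14), with the core on either strand in capitals.
MIR210HG, chr11:568458-568517, minus strand: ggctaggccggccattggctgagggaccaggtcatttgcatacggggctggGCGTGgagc
PFKFB4, chr3:48556937-48556996, minus strand: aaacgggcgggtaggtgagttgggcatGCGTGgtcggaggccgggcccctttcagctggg
BNIP3, chr10:131981995-131982054, minus strand: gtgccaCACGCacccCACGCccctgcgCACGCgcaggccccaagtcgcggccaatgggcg
DDIT4, chr10:72273844-72273903, plus strand: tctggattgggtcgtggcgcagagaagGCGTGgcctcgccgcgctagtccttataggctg
P4HA1, chr10:73096920-73096979, minus strand: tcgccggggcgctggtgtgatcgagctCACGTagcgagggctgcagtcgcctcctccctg
BNIP3 carries 3 cores within its window and 6 within its promoter of 300 bases (250 before the start and 50 after). Of 35 such promoters matched to 24 HIF-list genes called lower, 30 (85.7%) held at least 1 core on either strand. The share was 69.7% for 66 promoters of 36 tested list members and 60.3% for 789 promoters of 507 other genes called lower. It was 58.9% for 16295 promoters of 11138 tested genes and 48.4% for 35116 promoters of all 27305 genes with RefSeq promoters. Genes not matched to a promoter by symbol were left out, and some genes had more than 1 promoter. A 5-base core occurs often, and a match is a description of the sequence, not of binding. The list was itself drawn from genes known as HIF targets.

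The 12 largest falls and 12 largest rises were taken among 1036 called genes with whole counts, at least 5 CPM in the higher line and groups that did not overlap. Besides SLC2A3, MIR210HG and PFKFB4, the falls were PTCHD1, PSG4, BHLHE40, NRN1, PPFIA4, MST1, RPRM, DHRS3 and CXCR4. PTCHD1, a membrane protein with a patched domain, was at 1.10 and 0.965 CPM in shHuR against 4.36 and 6.22 CPM in shControl, the steepest of the falls (-2.35, SE 0.28, edgeR adjusted p = 2.67e-04). BHLHE40, a transcriptional repressor of the circadian and hypoxia responses, was at 10.1 and 7.69 CPM against 20.3 and 25.7 CPM (-1.37, edgeR adjusted p = 0.00231). NRN1, neuritin, a secreted neurite growth factor, was at 43.5 and 54.8 CPM against 122 and 120 CPM (-1.30, SE 0.11, edgeR adjusted p = 2.56e-05).

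CXCR4, the receptor of the chemokine CXCL12, was at 3.78 and 3.21 CPM in shHuR against 7.24 and 8.45 CPM in shControl (-1.17, edgeR adjusted p = 0.00114). DHRS3, a retinal reductase, fell by 1.18 and RPRM, a p53-regulated gene linked to G2 arrest, by 1.23. PPFIA4, a liprin scaffold protein, fell by 1.26. PSG4 (-1.48) belongs to the near-identical pregnancy-specific glycoproteins, of which 1 of 10 was tested, and MST1 (-1.26) has closely similar copies, so reads of either may be shared with relatives. Of the 12 falls, 11 kept their call in all 24 alternatives. RPRM lost its call without shHuR replicate 1 (edgeR adjusted p = 0.124), shHuR replicate 2 (0.110) or shControl replicate 1 (0.0931). GUCY1A2, at -1.16, lay just outside the 12.

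The 12 largest rises ran from 0.98 to 1.52, and the 12 largest falls from -2.35 to -1.17. FCGRT, the neonatal Fc receptor that recycles IgG and albumin, was at 7.23 and 7.97 CPM in shHuR against 3.00 and 2.30 CPM in shControl (1.52, SE 0.21, edgeR adjusted p = 9.81e-04). CYBRD1, a ferric reductase of iron uptake, was at 7.41 and 8.03 CPM against 2.12 and 3.85 CPM (1.37, edgeR adjusted p = 0.00320). TXNIP, which binds thioredoxin and restrains glucose uptake, was at 21.9 and 24.0 CPM against 12.1 and 10.7 CPM (1.01, SE 0.11, edgeR adjusted p = 1.61e-04). The rule that chose these genes required groups that did not overlap.

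SEPT7, a core septin of the cytoskeleton, was at 188 and 196 CPM in shHuR against 103 and 91.8 CPM in shControl (0.98, SE 0.09, edgeR adjusted p = 5.30e-05). ITPK1, an inositol phosphate kinase, rose by 1.17, and PTRF, which encodes the caveolar coat protein cavin-1, by 1.04. NEFM (1.25), a neurofilament subunit, RTN1 (1.15), a reticulon, and SV2A (1.06), a synaptic vesicle protein, were also among the 12. Neuronal genes went both ways: INA (0.95) was called higher, and NEFL (-0.47), ELAVL2 (-0.75) and NRN1 (-1.30) were called lower. The rest of the 12 were RASL10B (1.14), PHF15 (0.99) and the histone gene HIST1H2AE (1.05). Calls for 8 of the 12 held in all 24 alternatives. HIST1H2AE, PHF15 and RASL10B lost theirs without shHuR replicate 2 (edgeR adjusted p from 0.0534 to 0.0882), PHF15 and RASL10B without shControl replicate 1 (0.0590 to 0.0852), and RTN1 without shHuR replicate 1 (0.0824). SCN9A, at 0.97, came next.

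**Figure D3:**
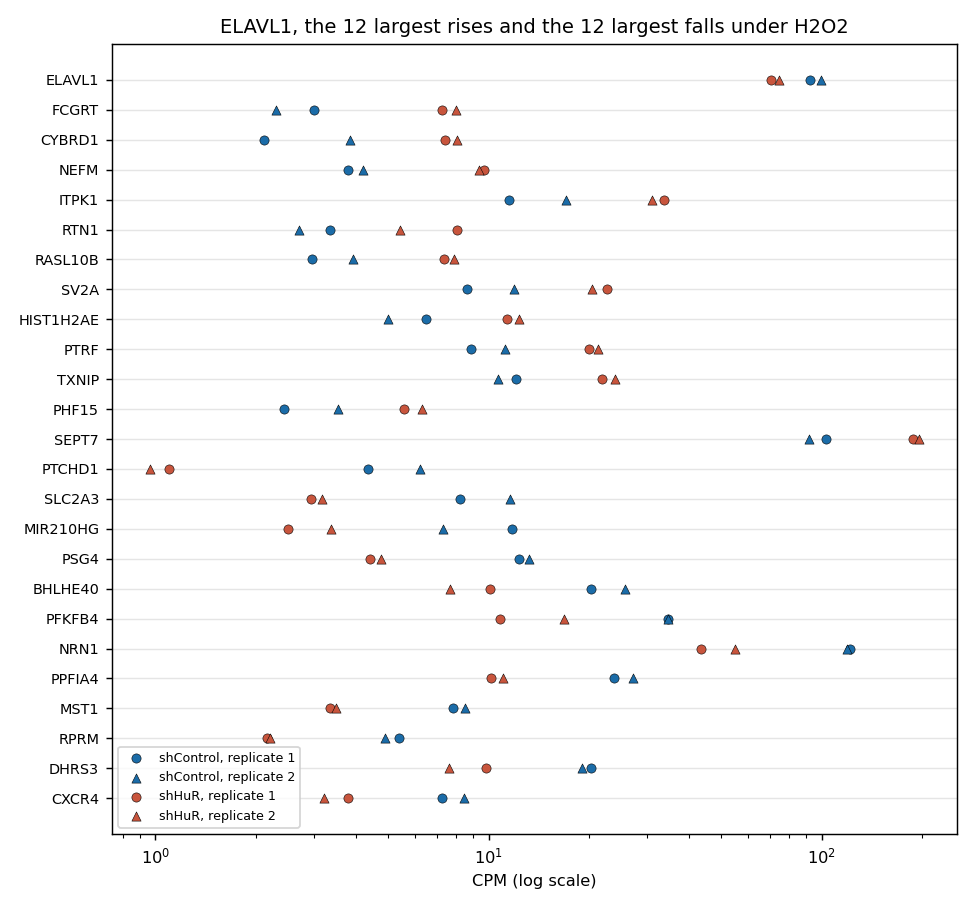
CPM (horizontal axis, log scale) in each of the 4 H2O2 libraries for ELAVL1, the 12 largest rises and the 12 largest falls between the lines; circles are replicate 1 and triangles replicate 2. The shHuR libraries (orange) and shControl libraries (blue) do not overlap in any of these genes, which the rule required of all but ELAVL1.

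Several heat-shock chaperones, targets of the transcription factor HSF1, were higher in the shHuR line. Of 19 tested, 6 were called higher and 1 lower (36.8%, against 7.19% of all genes tested). Their median log2 fold change was 0.16. HSPA8, the constitutive HSP70, was at 2181 and 2261 CPM in shHuR against 1340 and 1321 CPM in shControl (0.74, SE 0.07, edgeR adjusted p = 5.30e-05). HSPA1B, an inducible HSP70, was at 460 and 459 CPM against 231 and 260 CPM (0.90, edgeR adjusted p = 1.75e-04), and its near-identical copy HSPA1A was listed at 1.01 to 1.65 CPM, so their reads cannot be separated with certainty. DNAJB1, an HSP40 co-chaperone, was at 81.0 and 82.0 CPM against 53.4 and 50.2 CPM (0.65, edgeR adjusted p = 5.90e-04). DNAJA1 rose by 0.36, HSPH1 by 0.28 and the adaptor STIP1 by 0.26. The mitochondrial co-chaperone HSPE1 fell by 0.34 (edgeR adjusted p = 0.00981), and its counts were partly fractional. The HSP90 genes HSP90AA1 and HSP90AB1 did not pass (0.23 and 0.01, edgeR adjusted p = 0.165 and 0.933). HSPA8, HSPA1B and DNAJB1 kept their calls in all 24 alternatives, over which 3 to 7 members were called higher. DNAJA1 and HSPH1 lost theirs without either shHuR replicate or without shControl replicate 2 (edgeR adjusted p from 0.110 to 0.219), and HSPE1 without replicate 1 of either line (0.0844 to 0.140).

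Of 24 endoplasmic reticulum stress genes, 3 chaperones were called higher and 0 genes lower (12.5%, against 7.19% of all genes tested). The other 21 did not pass, and the median of the list was 0.17. HSPA5, the luminal HSP70 known as BiP, was at 347 and 337 CPM in shHuR against 241 and 234 CPM in shControl (0.53, SE 0.13, edgeR adjusted p = 0.0268). HYOU1 (0.37) and DNAJB11 (0.26), which act with it, were the others. All 3 calls were lost without shHuR replicate 2 (edgeR adjusted p from 0.0534 to 0.183), and those of HSPA5 and DNAJB11 also without each of the other 3 H2O2 libraries. Of 36 targets of ATF4, the transcription factor of the integrated stress response, 6 were called lower and 1 higher (19.4%, median -0.07). DDIT4 and STC2 among them also stand on the HIF list, and without HIF-list members the count was 4 lower and 1 higher of 34. ATF3, a stress-induced repressor, was at 21.8 and 24.1 CPM in shHuR against 38.2 and 40.4 CPM in shControl (-0.78, edgeR adjusted p = 3.78e-04), VLDLR fell by 0.64 and CTH by 0.39. ATF5 rose by 0.61. The calls of ATF5, CTH and VLDLR were lost without either shHuR replicate or without shControl replicate 1. That of CTH was also lost without shControl replicate 2. Those of CTH and VLDLR were lost as well without either untreated shControl library or either HNE-treated shHuR library, and that of VLDLR without either untreated shHuR library.

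Calls among mRNAs reported to be bound by HuR went both ways. Of 25 tested, 3 were called lower and 1 higher, together 16% against 7.19% of all genes tested, with a median of 0.03. CCND1, cyclin D1, was at 29.8 and 26.7 CPM in shHuR against 57.1 and 57.0 CPM in shControl, a fall of 50.4% (-1.01, SE 0.09, edgeR adjusted p = 3.07e-05). MYC was at 77.2 and 73.5 CPM against 107 and 108 CPM (-0.51, edgeR adjusted p = 0.0159), and VEGFA, given above, was the third. CDKN1A, the cyclin-dependent kinase inhibitor p21, was at 13.9 and 12.1 CPM against 8.38 and 9.25 CPM and rose by 0.56 (edgeR adjusted p = 0.0146). Of the others, BCL2 had -0.32 (edgeR adjusted p = 0.229), CTNNB1 0.02 (0.903), CCNA2 0.03 (0.861), SIRT1 0.04 (0.836) and ACTB 0.23 (0.103). The CCND1 call held in all 24 alternatives. MYC lost its call without any 1 of the 4 H2O2 libraries (edgeR adjusted p from 0.0521 to 0.137), CDKN1A without replicate 1 of either line (0.108 to 0.157) and VEGFA without shHuR replicate 1 (0.0660).

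Of 21 AU-rich element binding proteins and mRNA decay factors tested, counting ELAVL1, 2 were called lower and 2 higher. This is 19%, against 7.19% of all genes tested. ELAVL2, a neuronal relative of HuR, was at 25.8 and 24.6 CPM in shHuR against 41.5 and 43.2 CPM in shControl (-0.75, edgeR adjusted p = 0.00174). KHSRP, which promotes decay of AU-rich mRNAs, was at 241 and 214 CPM against 138 and 170 CPM (0.56, edgeR adjusted p = 0.0119), and CNOT7, a deadenylase subunit, rose by 0.47. HNRNPD, or AUF1, which can compete with HuR, did not pass (0.11, edgeR adjusted p = 0.572). KHSRP lost its call without replicate 1 of either line (edgeR adjusted p = 0.134 in each case). In the 3′ UTRs of called genes, the AU-rich pentamer ATTTA was present in 82.6% of 390 genes called higher, 77.9% of 702 called lower and 72.8% of 14232 tested, while the median UTR lengths were 1780, 1596 and 1339 bases. Per kilobase, the order was different, at 2.15, 2.60 and 2.25 copies. A run of 7 T was present in 63.3%, 58.0% and 50.5% of these UTRs, at 2.43, 2.51 and 2.32 per kilobase, overlapping matches included.

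The guide seed's match, AGTTTGC, was counted in the same UTRs after the calls had been seen. It occurred in 14.8% of the genes called lower, 15.6% of those called higher and 12.6% of all tested. Per kilobase the densities were 0.0751, 0.0788 and 0.0743. Of 14 genes of the RNA interference machinery tested, AGO1 (0.37) and DROSHA (0.31) were called higher and AGO4 (-0.39) lower. The share called was 21.4%, against 7.19% of all genes tested. None of these 3 calls held without either shHuR replicate or without shControl replicate 1 (edgeR adjusted p from 0.0517 to 0.203).

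**Figure D4:**
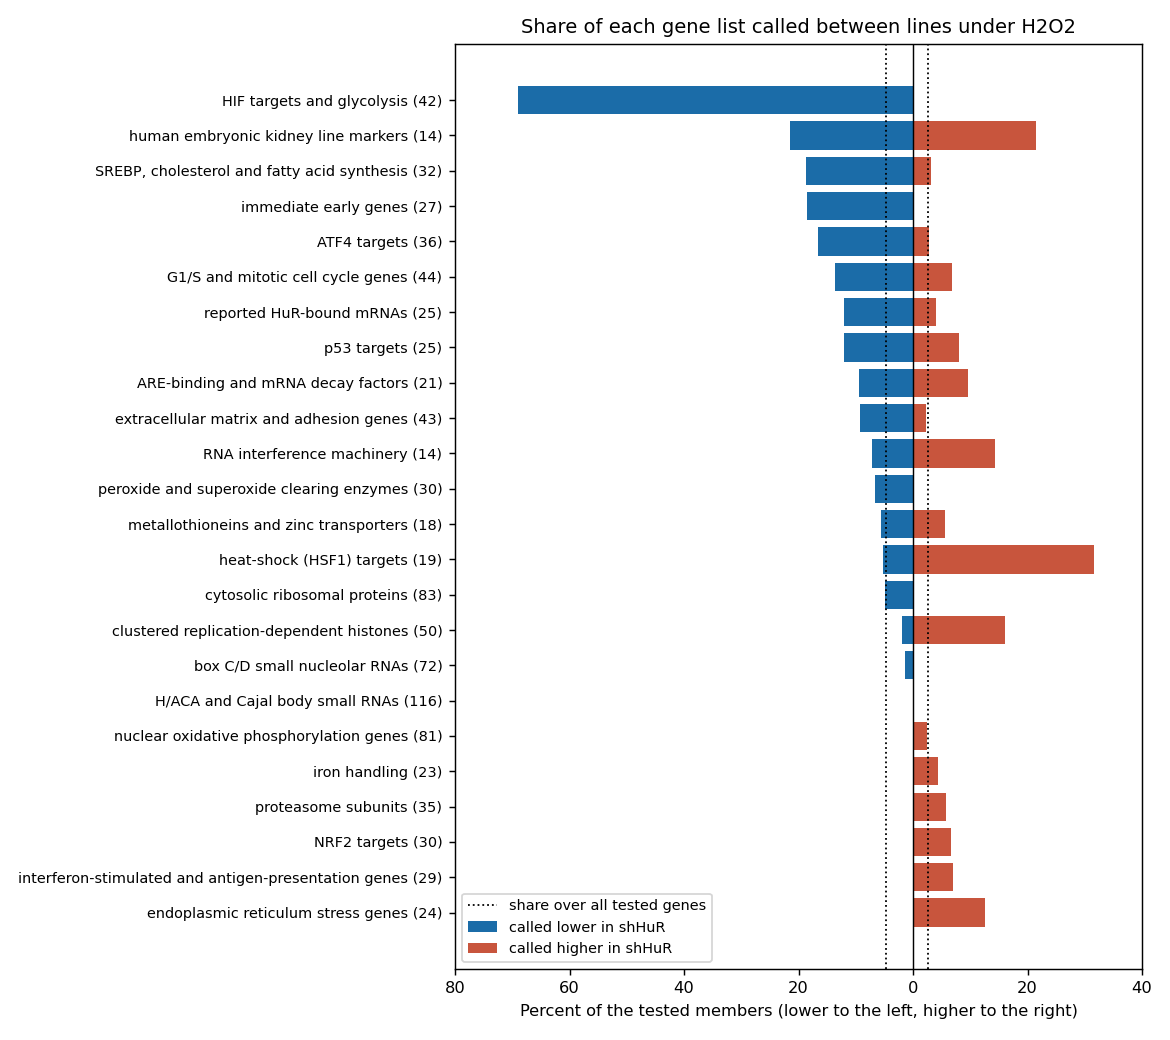
Percent of the tested members of each gene list called lower (left, blue) or higher (right, orange) in shHuR under H2O2, with the number tested in brackets, for the lists with 10 or more. Dotted lines mark the shares over all tested genes, 4.67% lower and 2.52% higher. The HIF list reaches 69% lower, and the heat-shock list has 6 of 19 higher.

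The share of antioxidant response genes called was near that of all genes tested. NRF2, encoded by NFE2L2, drives this response to peroxide and is held in check by KEAP1, and neither mRNA passed (NFE2L2 -0.16, edgeR adjusted p = 0.382, and KEAP1 0.09, 0.569). Of 30 NRF2 targets tested, 2 were called higher and 0 lower (6.67% against 7.19% of all genes), with a median of -0.03. NQO1, a quinone reductase, was at 7.41 and 7.62 CPM in shHuR against 4.51 and 5.04 CPM in shControl (0.65, SE 0.16, edgeR adjusted p = 0.0205), and the carbonyl reductase CBR1 rose by 0.34. HMOX1, haem oxygenase, was at 9.36 and 11.7 CPM against 10.4 CPM in both shControl libraries (0.02, edgeR adjusted p = 0.961). Neither NQO1 nor CBR1 kept its call without either shHuR replicate or without shControl replicate 1 (edgeR adjusted p from 0.110 to 0.222).

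Of 30 enzymes that clear peroxide and superoxide, or restore those that do, 2 were called lower and 0 higher, again 6.67%. SESN3, a sestrin, was at 101 and 94.0 CPM in shHuR against 133 and 151 CPM in shControl (-0.54, edgeR adjusted p = 0.00535), and the thioredoxin reductase TXNRD3, whose counts were partly fractional, fell by 0.47. Catalase, CAT, was at 33.5 CPM in both shHuR libraries and at 35.5 and 38.1 CPM in shControl (-0.13, edgeR adjusted p = 0.358). The peroxiredoxins PRDX1, PRDX2, PRDX3, PRDX4, PRDX5 and PRDX6 ran from -0.24 to 0.09 and none passed. The superoxide dismutases SOD1 (0.04) and SOD2 (-0.11) did not pass either. Both calls were lost without shHuR replicate 2 (edgeR adjusted p from 0.0783 to 0.176), and TXNRD3's also without replicate 1 of either line.

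Cell cycle genes moved in both directions. Of 44 tested, 6 were called lower and 3 higher (20.5%, against 7.19% of all genes tested), with a median of -0.01. RB1, the retinoblastoma protein that restrains entry into S phase, was at 84.4 and 75.0 CPM in shHuR against 37.3 and 45.2 CPM in shControl (0.95, SE 0.11, edgeR adjusted p = 2.67e-04). CDK6, a kinase that phosphorylates it, was at 198 and 182 CPM against 318 and 331 CPM (-0.77, edgeR adjusted p = 2.00e-04). The D cyclin CCND2 fell by 0.47, the activator E2F2 by 0.57 and the licensing factor CDT1 by 0.43, beside CCND1. RB1, CDK6, CCND1 and CCND2 kept their calls in all 24 alternatives, whereas CDT1 lost its own without either shHuR replicate or without shControl replicate 2, and E2F2 without shHuR replicate 2 (edgeR adjusted p from 0.0577 to 0.160). Of 27 immediate early genes, 5 were called lower and 0 higher (18.5%): ATF3, JUN, JUND, MYC and IER2. JUN, a subunit of the AP-1 factor, was at 164 and 166 CPM in shHuR against 252 and 249 CPM in shControl (-0.60, SE 0.07, edgeR adjusted p = 2.54e-04). ATF3 and JUN kept their calls throughout, while JUND lost its own without shHuR replicate 1 (edgeR adjusted p = 0.0917) and IER2 without any 1 of the 4 libraries (0.0765 to 0.232).

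Of 43 extracellular matrix and adhesion genes, 4 were called lower and 1 higher (11.6%, against 7.19% of all genes tested). ITGB1, the β1 integrin subunit shared by most matrix receptors, was at 101 and 111 CPM in shHuR against 256 and 213 CPM in shControl, a fall of 54.9% (-1.15, SE 0.09, edgeR adjusted p = 1.68e-05), and its call held in all 24 alternatives. HSPG2, perlecan, fell by 0.63, AGRN by 0.49 and COL4A6 by 0.36, and COL2A1 rose by 0.53, all 4 losing their calls without shHuR replicate 2 (edgeR adjusted p from 0.0833 to 0.271) and all but AGRN also without at least 1 other H2O2 library. Of 32 genes of cholesterol and fatty acid synthesis driven by SREBP, 6 were called lower and 1 higher (21.9%). INSIG1, the anchor that holds SREBP in the endoplasmic reticulum, was at 70.5 and 72.4 CPM against 117 and 128 CPM (-0.78, SE 0.07, edgeR adjusted p = 5.30e-05). STARD4, a cholesterol carrier, fell by 0.70, SREBF1 by 0.43, ELOVL6 by 0.43 and MSMO1 by 0.32. INSIG1 and STARD4 kept their calls in all alternatives, and the other 3 named lost theirs without either shHuR replicate (edgeR adjusted p from 0.0880 to 0.242).

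Of 25 p53 targets, GADD45B (0.77) and CDKN1A were called higher and DDB2 (-0.58), ZMAT3 (-0.49) and CCNG1 (-0.30) lower, and none of the 5 held without shHuR replicate 1 (edgeR adjusted p from 0.0514 to 0.229). The share of p53 targets called was 20%, against 7.19% of all genes tested. Of 23 iron-handling genes, CYBRD1 was the 1 called (4.35%). Of 29 interferon-stimulated and antigen-presentation genes, FCGRT and EIF2AK2 (0.31) were called higher (6.9%). The shares of the iron-handling and interferon lists, unlike that of the p53 targets, did not exceed that of all genes tested. The zinc importer SLC39A10 was at 123 and 120 CPM in shHuR against 212 and 196 CPM in shControl (-0.75, edgeR adjusted p = 1.75e-04). The exporter SLC30A1 rose by 0.50. These were the 2 called of 18 metallothionein and zinc transporter genes (11.1%). EIF2AK2 and SLC30A1 lost their calls without shHuR replicate 2 or without shControl replicate 1 (edgeR adjusted p from 0.0864 to 0.166), and EIF2AK2 also without shHuR replicate 1.

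The shares called among subunits of large complexes stand beside 7.19% of all genes tested. Of 35 proteasome subunits, PSMD12 (0.32) and PSMD11 (0.27) were called higher (5.71%), and in 17 both shHuR libraries lay above both shControl libraries, against 25.6% of all genes. Of 81 nuclear oxidative phosphorylation genes, ATP5G1 (0.78, edgeR adjusted p = 0.00105) and NDUFA9 (0.28) were called higher (2.47%). PSMD11, PSMD12 and NDUFA9 lost their calls without either shHuR replicate or without shControl replicate 1. They also lost them without either HNE-treated shHuR library. PSMD12 and NDUFA9 lost theirs without shControl replicate 2 as well. Of 83 cytosolic ribosomal protein genes, 4 were called lower (4.82%), RPL22L1, RPL12, RPL3 and RPL18, with a median of -0.12 and 76 negative estimates, and all 4 calls were lost without shHuR replicate 1 (edgeR adjusted p from 0.0728 to 0.199). Pseudogene copies can share reads with these genes, and over the alternatives 0 to 20 of them were called lower. Of 50 clustered histone genes, 8 were called higher and 1 lower (18%), led by HIST1H2AE and HIST1H1D (0.65, edgeR adjusted p = 7.13e-04), and between 2 and 16 were called higher over the alternatives. Histone genes are near-copies of one another, so single members are uncertain.

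Small structural RNAs varied between libraries of the same line. Box C/D small nucleolar RNAs summed to 1306 and 1885 CPM in shHuR and to 2002 and 1509 CPM in shControl, so the lines overlapped. Of 72 tested, 66 had a negative estimate and the median was -0.79, but 1, SNORD36A, was called lower, and it lost its call without either shHuR replicate or without shControl replicate 1 (edgeR adjusted p from 0.140 to 0.310). Over the alternatives 0 to 20 were called lower and the median ran from -1.37 to -0.38. Of 116 H/ACA and Cajal body RNAs tested, 0 were called by edgeR and 2 had an unadjusted p under 0.05, while DESeq2 called 1 lower and 0 to 11 were called lower over the alternatives. Of 6 RNA polymerase III transcripts tested, 0 passed with edgeR, 0 with DESeq2 and 0 at an unadjusted p under 0.05, and 0 to 2 were called lower over the alternatives.

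Markers of the cell line were present, with 14 of 15 human embryonic kidney line markers passing the filter on low counts. Of these, the neurofilament-family genes INA (0.95) and NEFM and the kidney transcription factor WT1 (0.89) were called higher in shHuR. VIM (-0.51), ENO2 and NEFL (-0.47) were called lower. The share called was 42.9%, against 7.19% of all genes tested. VIM, vimentin, was at 364 and 345 CPM in shHuR against 489 and 521 CPM in shControl. WT1 and ENO2 lost their calls without either shHuR replicate, WT1 also without shControl replicate 1 and ENO2 also without shControl replicate 2. The WT1 call was lost as well without either untreated shControl library or either HNE-treated shHuR library. Of 26 markers of other cell types, 7 were at 0 in all 4 libraries and 18 stayed under 10 counts in each, and their summed level was 12.9 and 11.4 CPM in shHuR and 12.8 and 13.5 CPM in shControl. Of these, 7 were tested and 0 called by edgeR or by DESeq2, with 1 at an unadjusted edgeR p under 0.05. In bulk RNA, fewer cells that express a gene and less of its RNA per cell cannot be told apart.

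The 4 libraries held 26642441 to 28945635 counts, and 17278 to 18267 genes had a count. Replicates of a line differed by more than sampling noise, with a chi-square per degree of freedom of 5.84 in shHuR and 10.9 in shControl, so none was a repeat of another. Calls were more frequent at higher level, from 1.40% in the 4001 genes of lowest mean CPM to 11.1% in the 4002 of highest, where the median size of a called difference was 0.35 against 1.46 in the lowest. Protein-coding genes were called in 7.68% of 14328, long noncoding RNAs in 4.11% of 681 and pseudogenes in 3.67% of 381. By chromosome the share called ran from 5.49% to 9.85% and the median from -0.07 to 0.05. In runs of 50 neighbouring genes the median stayed within 0.1 of 0 in 550 of 588, and the highest was 0.145. The lowest, -0.23, was on chromosome 16 between WDR90 and NOXO1, with 11 of 50 genes called lower and 0 higher. The runs that overlap it leaned the same way. POLR3K to UNKL had a median of -0.19 with 7 called lower and 0 higher. C16orf91 to TBC1D24 had -0.12 with 6 called lower and 0 higher.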

How the data were processed

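Per the labels' protocols, ribosomal RNA was subtracted from total RNA and directional libraries were read from 1 end. The authors' deposited tables list each gene by symbol, one holding estimated counts and the other FPKM (per gene length and library size), for 12 libraries. The submitters' processing notes name cutadapt 1.8, Bowtie2 2.2, TopHat2 2.1, Cufflinks 2.2, Cuffnorm, Cuffdiff and the build GRCh37/hg19, with no role or order. The counting program and its use of strand are not given in the sources used here, so reads of overlapping or antisense genes may be shared.

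Counts were rounded (2.25% of the deposited values, in 701 genes, were not whole) and low genes removed by filterByExpr of edgeR with a minimum count of 10 in a group, leaving 16005 genes of 23615. TMM scaling and edgeR 4.0.16 in R 4.3.3 gave quasi-likelihood tests of the line difference under H2O2 in a model of 6 group means over 12 libraries (6 residual degrees of freedom). P-values were adjusted by the Benjamini-Hochberg method. TMM factors of the 4 libraries were 0.985 to 1.02, and the biological coefficient of variation was 8.32%. CPM used the scaled library sizes. A standard error is the log2 fold change divided by the square root of F.

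The members, the 27 gene lists and the rule for naming genes were chosen with earlier results of these data known. Named genes were 10 given whatever their values, the 12 largest rises and falls, and up to 6 called members of each list, of which some are not reported here. All 29 called members of the HIF list, STIP1 and the HIF pathway components were named after their values were seen. So were list members given without a call and the chromosome 16 runs. Alternatives were DESeq2 1.42.0, other scalings and filters, a replicate block, limma 3.58.1 on log2(FPKM + 1) or log2(FPKM + 0.1), other sets of libraries, whole counts alone, and each library left out. The deposited FPKM values entered only the limma fits, whose fold changes understate those of low genes. GENCODE 29 (GRCh38) gave positions and 3′ UTRs (the longest of each gene), and RefSeq gave promoters. The count tests were tried on simulated data with planted changes. Of changes of 0.5, 1 and 2 on the log2 scale, 41.8%, 71.6% and 97% were recovered. There were 6 false calls among 15590 unchanged genes. A change of 0.5 was thus often missed, and a gene that did not pass may still differ. The simulated counts were drawn independently around a single mean per gene, without treatment effects or deviations shared within a library. Their rate of false calls may therefore not hold for the real libraries.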

Additional observations from a re-analysis of the deposited data

How the results depend on the processing

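With 1 library left in a group, that library is assumed to vary like the others. The count of genes called (1151) was 1802 with low counts left unfiltered, 675 with limma on unfiltered log2(FPKM + 1), and 290 to 1845 with 1 of the 12 libraries left out. Genes called higher (404) numbered 784 and 265 in the first 2 of these fits and 83 to 777 with a library left out. Genes called lower (747) numbered 410 with unfiltered limma and 207 to 1068 with a library left out. Genes called at 2-fold or more (96) numbered 174 without a filter, 15 with limma on log2(FPKM + 1), 51 on log2(FPKM + 0.1), 12 with unfiltered limma and 41 to 197 with a library left out. The ELAVL1 log2 fold change was -0.45 to -0.34 with a library left out and stayed negative throughout.

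The same replicate number marked no shared deviation (correlation -0.06), and with the replicate block 987 genes were called, 339 higher and 648 lower, 961 of them among the 1151. DESeq2 called 1438 genes, of which 1126 were among the 1151, and every shared gene kept its direction in each alternative. Of 120 named called genes, 50 kept their call in all 24 alternatives and 70 lost it in at least 1. Among named genes not called, 2 changed sign when a library was left out: ARNT ran from -0.021 to 0.12 and HMOX1 from -0.15 to 0.17, both negative without shHuR replicate 2. Why these values moved was not tested. Calls were also lost without either untreated shControl library, which does not enter the difference, for CBR1, COL2A1, COL4A6, CCNG1, DNAJB11, DROSHA and GADD45B. The same held for HSPH1, IER2, MSMO1, RPL3, RPL18, SNORD36A and SREBF1. At this depth, genes under about 3 CPM were rarely called.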
